A study of Mus musculus with 6 samples.

Results

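The 7 genes described here encode the sterol regulatory element binding proteins (SREBPs) and the machinery that processes them. They are Srebf1 and Srebf2, which encode SREBP-1 and SREBP-2, Scap, Insig1, Insig2, and Mbtps1 and Mbtps2, which encode the site-1 and site-2 proteases. All probe sets whose annotation gave 1 of these 7 symbols and no other were taken, which gave 13 probe sets out of 34945 with 1 gene symbol. Of the 13 probe sets, 11 passed the filter on low signal, and each of the 7 genes had at least 1 that passed. Each gene was tested among 12598 genes on the probe set with the highest mean signal over all arrays.

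SREBPs are made as membrane proteins of the endoplasmic reticulum, where they are bound to the escort protein SCAP. When sterols are scarce, SCAP carries the SREBP to the Golgi, and the site-1 and then the site-2 protease release the part that enters the nucleus. When sterols are plentiful, INSIG proteins hold SCAP in the endoplasmic reticulum. In liver, SREBP-1c, the main hepatic product of Srebf1, is known for turning on fatty acid synthesis under insulin and liver X receptor (LXR) control, whereas SREBP-2 is known for turning on cholesterol synthesis and uptake.

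Total RNA from frozen livers of 6 male mice was hybridized to Affymetrix 3′ arrays, 1 array per mouse. The 3 ChLO mice lacked ChREBP in the liver through floxed Chrebp alleles, today named Mlxipl, and a Cre transgene under the albumin promoter, and the other 3 were wild type (WT). All 6 mice were 12 weeks old when they were put on a 60% sucrose diet for 1 week, with free access to food and water. Albumin-Cre acts in hepatocytes, so other liver cells keep the floxed gene. The labels do not state whether the WT mice carried floxed alleles or Cre. ChREBP is a transcription factor that sugar activates and that shares many lipogenic target genes with SREBP-1c. The comparison shows how transcripts of the SREBP system differ when hepatic ChREBP is deleted under a sucrose load.

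Values are log2 MAS5 signals, and differences are ChLO minus WT on that scale. Array medians lay between 6.38 and 6.60, and correlations between arrays over the genes tested lay between 0.894 and 0.954. The 3′ minus 5′ log2 signal of the Actb controls, a measure of RNA quality, was 0.84, 1.03 and 1.46 in ChLO 1, 2 and 3. In WT 1, 2 and 3 it was 1.13, 1.38 and 1.28, so ChLO 3 had the highest value. Its part in the readings of ChLO 3 was not tested. Mlxipl read 10.34, 11.22 and 11.48 in ChLO 1, 2 and 3, against 12.61, 12.56 and 12.59 in WT 1, 2 and 3, so no ChLO array reached the WT range. The hepatocyte marker Alb read 15.31 to 15.67 in ChLO and 15.52 to 15.85 in WT livers. Markers of other cell types were uneven over the ChLO livers. All 11 stellate cell markers had higher means in ChLO, with a summed linear signal of 11755 to 32040 in ChLO and 9399 to 14670 in WT. Of 11 myeloid markers 9 were higher, with sums of 11434 to 21163 in ChLO and 12754 to 12870 in WT, and of 7 cholangiocyte markers 6 were higher, with sums of 591 to 1995 in ChLO and 447 to 590 in WT. In these 3 lists ChLO 3 had the lowest ChLO sum. The endothelial sum was instead lowest in ChLO 1, at 7509, against 10121 and 7850 in ChLO 2 and 3. The lymphocyte sum, with 3 of 7 markers past the filter, was highest in ChLO 3, at 629, against 400 and 446 in ChLO 1 and 2. In whole liver, fewer cells of a type and less RNA per cell cannot be told apart, and 3 arrays per group limit the precision of every value.

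Windows before the RefSeq transcription starts (GRCm38.p6) are shown for 4 of the 7 genes, Srebf1, Srebf2, Scap and Insig1. Each window shown holds at least 1 of the motifs marked below. For Srebf1 and Scap it is the only window of the gene that does. Insig2 windows with a motif are not printed. RefSeq promoter windows were found for all 7 genes, 12 in all, and 250 bases before the start are printed. Capitals mark GGTTACT, a repeat unit shared by the LXR elements known from the mouse SREBP-1c promoter, TCACCC, the core of many sterol regulatory elements, and CACGTG, the E-box core to which factors such as ChREBP and SREBP-1 can bind. Both strands were searched, and no matches overlap. For Srebf1 the most downstream of its 3 starts is shown. Each line is written 5′ to 3′ on the strand of the gene.
Srebf1, chr11:60210472-60210721, minus strand: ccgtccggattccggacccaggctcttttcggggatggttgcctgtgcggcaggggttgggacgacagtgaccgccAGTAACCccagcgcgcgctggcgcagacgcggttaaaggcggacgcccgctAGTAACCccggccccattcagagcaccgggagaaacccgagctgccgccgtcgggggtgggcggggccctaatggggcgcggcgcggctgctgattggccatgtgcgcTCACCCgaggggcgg
Srebf2, chr15:82147019-82147268, plus strand: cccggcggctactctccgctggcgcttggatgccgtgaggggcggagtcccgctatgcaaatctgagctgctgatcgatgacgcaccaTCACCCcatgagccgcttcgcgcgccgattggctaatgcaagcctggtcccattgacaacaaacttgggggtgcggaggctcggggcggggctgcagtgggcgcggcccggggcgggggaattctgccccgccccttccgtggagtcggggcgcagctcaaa
Scap, second start, chr9:110333106-110333355, plus strand: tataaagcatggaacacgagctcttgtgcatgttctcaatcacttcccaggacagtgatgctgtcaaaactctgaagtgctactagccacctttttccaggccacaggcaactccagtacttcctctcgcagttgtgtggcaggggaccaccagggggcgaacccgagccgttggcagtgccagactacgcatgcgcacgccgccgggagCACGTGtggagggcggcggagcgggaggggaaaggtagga
Insig1, chr5:28071162-28071411, plus strand: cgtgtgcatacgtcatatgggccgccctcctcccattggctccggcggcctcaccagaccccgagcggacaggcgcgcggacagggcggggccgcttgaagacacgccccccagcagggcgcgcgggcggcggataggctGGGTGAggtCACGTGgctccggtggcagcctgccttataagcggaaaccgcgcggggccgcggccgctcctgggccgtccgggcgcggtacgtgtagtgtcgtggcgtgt

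In the Srebf1 window GGTTACT lay on the opposite strand at 168 to 174 and at 117 to 123 bases before the start, and TCACCC at 10 to 15 bases. Of 32536 distinct windows of the same length, 1.90% held GGTTACT and 12 held it 2 or more times, where the letters had been chosen from knowledge of this promoter. TCACCC was found in 13.9% of all windows, CACGTG in 6.04% and both in 0.864%. The Insig1 window held TCACCC and CACGTG, at 105 to 110 and 96 to 101 bases before the start. The Srebf2 window held TCACCC at 157 to 162 bases, and the second Scap window held CACGTG at 35 to 40 bases. The Insig2 windows at 2 of its 3 starts held TCACCC. The first Scap window, the other two Srebf1 windows, the remaining Insig2 window and those of Mbtps1 and Mbtps2 held none of the 3 motifs. A match of letters is a description and does not show binding.

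Among the 7 genes, Srebf1 and Scap had lower signals in every ChLO liver than in any WT liver. Srebf1 was 2.28-fold lower and Scap 1.76-fold lower. Insig2 and Insig1 were lower on average, by 1.75-fold and 1.43-fold, with overlapping groups, and Srebf2, Mbtps1 and Mbtps2 differed little compared with their spread. No gene of the 7 passed at an adjusted p of 0.05 in limma with Benjamini-Hochberg adjustment, nor did any of the 12598 genes (0%), where the smallest adjusted p was 0.0528. At an unadjusted limma p under 0.05 there were 2 of 7, Srebf1 and Scap, both lower, against 8.96% of all genes in either direction, 3.5% lower and 5.46% higher. Groups did not overlap for the same 2 genes, both lower, against 15.2% of all genes without overlap, 6.19% lower and 9.04% higher. Taken as probe sets, none of the 11 tested passed at an adjusted limma p of 0.05, against 0.0296% of 27022 probe sets, and the Srebf1 probe set and the brighter Scap probe set had an unadjusted p under 0.05, against 8.02%. The median difference was -0.52 over the 7 genes and 0.06 over all genes tested. Srebf1 and Scap kept an unadjusted limma p under 0.05 in every alternative setting tried and without any 1 array.

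**Figure D1:**
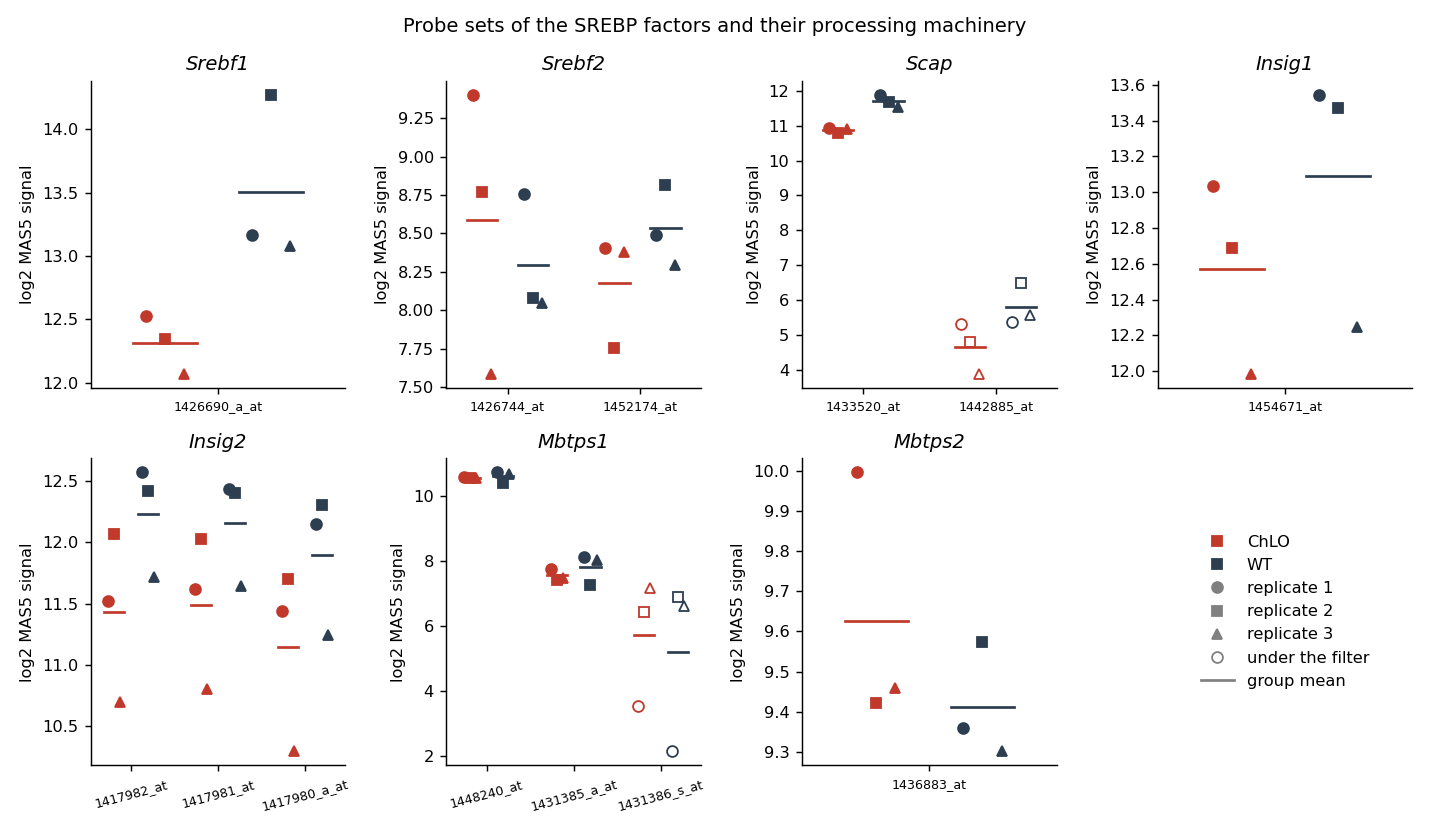
Log2 MAS5 signal (y axis) of all 13 probe sets in each of the 6 arrays, ChLO left of WT for each probe set, with a panel for each gene and its own axis range. Points are arrays, horizontal lines are group means and open points are the 2 probe sets under the filter. All ChLO points of Srebf1 (at most 12.52) and of the brighter Scap probe set (at most 10.93) lie below every WT point, whereas the groups of the other genes overlap.

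A single probe set read Srebf1. The log2 signal was 12.52, 12.35 and 12.07 in ChLO 1, 2 and 3, against 13.17, 14.27 and 13.08 in WT 1, 2 and 3. The ChLO arrays lay close together and the WT group was spread by the high reading of WT 2. The difference was -1.19 (SE 0.32, 95% interval -1.93 to -0.45), with an unadjusted limma p of 0.00625, or 0.424 after adjustment. Without WT 2 the difference was -0.81, with an adjusted limma p of 0.724, and over all arrays left out in turn it lay between -1.40 and -0.81. SREBP-1a and SREBP-1c arise from different starts of Srebf1, and the annotation used here does not say which of them this probe set reads.

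Srebf2 was measured by a pair of probe sets that disagreed, although both carry the same source accession. On the brighter probe set the signal was 9.40, 8.77 and 7.59 in ChLO 1, 2 and 3, against 8.76, 8.08 and 8.04 in WT 1, 2 and 3. ChLO 1 was the highest array and ChLO 3 the lowest, so the ChLO group spanned the WT group. The difference was 0.29 (SE 0.45, 95% interval -0.76 to 1.34), with an adjusted limma p of 0.851. On the dimmer probe set the signal was 8.40, 7.75 and 8.38 in ChLO, against 8.49, 8.82 and 8.30 in WT, a difference of -0.36 (SE 0.27). With array weights this difference was -0.70, with an unadjusted limma p under 0.05 and an adjusted p of 0.0810. With 1 array omitted it ran from -0.47 (without WT 3) to -0.14 (without ChLO 2). The sign of the difference thus depends on the probe set, and on the brighter one it was -0.12 without ChLO 1 and 0.79 without ChLO 3. The summed linear signal of stellate markers was 26691, 32040 and 11755 in ChLO 1, 2 and 3, against 14670, 13964 and 9399 in WT 1, 2 and 3. That of myeloid markers was 21163, 19640 and 11434 in ChLO, against 12870, 12778 and 12754 in WT. Within ChLO both sums were lowest in ChLO 3, where the brighter Srebf2 probe set was lowest too. The myeloid sums had the same order of arrays as that probe set in both genotypes. In WT that order rests on small gaps, with myeloid sums of 12754 to 12870. The stellate sums had that order in WT, and within ChLO they were highest in ChLO 2. The cholangiocyte sums had that order within ChLO, but in WT 1, 2 and 3 they were 531, 590 and 447. The endothelial sum was lowest in ChLO 1 within ChLO, and the lymphocyte sum was highest in ChLO 3. The part of other cell types in the Srebf2 reading was not tested.

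The difference between the responses of the 2 factors was tested within arrays. Srebf1 minus Srebf2 was 3.12, 3.58 and 4.49 in ChLO 1, 2 and 3, against 4.41, 6.19 and 5.03 in WT 1, 2 and 3. ChLO 3 lay inside the WT range and the other two ChLO arrays lay below it. The difference of -1.48 between the genotypes had a two-sided exact permutation p of 0.2 (adjusted p = 0.5 over 3 pairs), where 0.1 is the smallest p that 3 against 3 arrays allow. The same comparison gave 0.29 for Insig1 minus Insig2 (exact permutation p = 0.4) and -0.25 for Mbtps1 minus Mbtps2 (exact permutation p = 0.5). None of the 3 pairs was shown to respond differently.

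Scap, the escort and sterol sensor, had the smallest p of the 7 genes. Its signal was 10.93, 10.80 and 10.91 in ChLO 1, 2 and 3, against 11.88, 11.68 and 11.54 in WT 1, 2 and 3. Arrays within a group differed by at most 0.34, and the lowest WT array stood above the highest ChLO array. The difference was -0.82 (SE 0.16, 95% interval -1.19 to -0.45), with an unadjusted limma p of 0.000986, or 0.228 after adjustment. With any 1 array omitted it stayed within -0.90 to -0.73. With array weights Scap passed at a limma adjusted p of 0.0231, a setting under which 568 genes were called, and over the other alternatives and arrays left out its adjusted p lay between 0.0566 and 0.732. A dim probe set of Scap, under the filter and so not tested, read 5.30, 4.80 and 3.89 in ChLO, against 5.36, 6.49 and 5.56 in WT, with no overlap between the groups. Hepatocyte markers were lower in the same livers. All 9 that were measured, of 10 listed, had lower means in ChLO, with differences between -0.43 (Apob) and -0.19 (Alb) and a summed linear signal of 286881 to 354372 in ChLO and 366650 to 419202 in WT. Their part in the Scap and Srebf1 differences was not tested.

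Insig1 and Insig2 encode the proteins that retain SCAP, and Insig1 is itself a known SREBP target. Insig1 read 13.03, 12.69 and 11.99 in ChLO 1, 2 and 3, against 13.54, 13.47 and 12.25 in WT 1, 2 and 3. WT 3 read below 2 of the ChLO arrays, so the groups overlapped. The difference was -0.52 (SE 0.40, 95% interval -1.44 to 0.40), with an adjusted limma p of 0.702. It was -0.23 without ChLO 3 and -0.94 without WT 3.

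Insig2 was measured by 3 probe sets that shared a source accession and the same direction. On the brightest one the signal was 11.52, 12.07 and 10.70 in ChLO 1, 2 and 3, against 12.57, 12.42 and 11.71 in WT 1, 2 and 3. ChLO 2 read above WT 3, and ChLO 3 was the lowest of all. The difference was -0.80 (SE 0.37, 95% interval -1.66 to 0.05), with an unadjusted limma p of 0.0612 and an adjusted p of 0.575. The other probe sets gave -0.68 (SE 0.34) and -0.75 (SE 0.41), and array 3 was the lowest in both groups on each of the 3 probe sets. The difference was -0.44 without ChLO 3 and -0.26 with array weights, where its adjusted limma p was 0.616.

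The proteases showed no difference beyond their spread. Mbtps1, the site-1 protease, read 10.57, 10.56 and 10.55 in ChLO 1, 2 and 3, against 10.72, 10.40 and 10.67 in WT 1, 2 and 3, on its brightest probe set. The 3 ChLO values spanned 0.024 and lay inside the WT range. The difference was -0.039 (SE 0.16, 95% interval -0.41 to 0.34). A dimmer probe set differed by -0.25 (SE 0.30), and the third, under the filter, ranged from 3.55 to 7.18 in ChLO and from 2.16 to 6.88 in WT. Mbtps2, the site-2 protease, read 10.00, 9.42 and 9.46 in ChLO, against 9.36, 9.57 and 9.30 in WT. ChLO 1 stood above the 5 other arrays, and without it the difference of 0.21 (SE 0.22, 95% interval -0.29 to 0.71) was 0.027. The sign of Mbtps1 turned with scaling to spike-in controls, where its difference was 0.21 and the median of all genes 0.31. Srebf1, Scap, Insig1 and Insig2 stayed lower under all 3 other scalings tried, spike-in controls included.

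**Figure D2:**
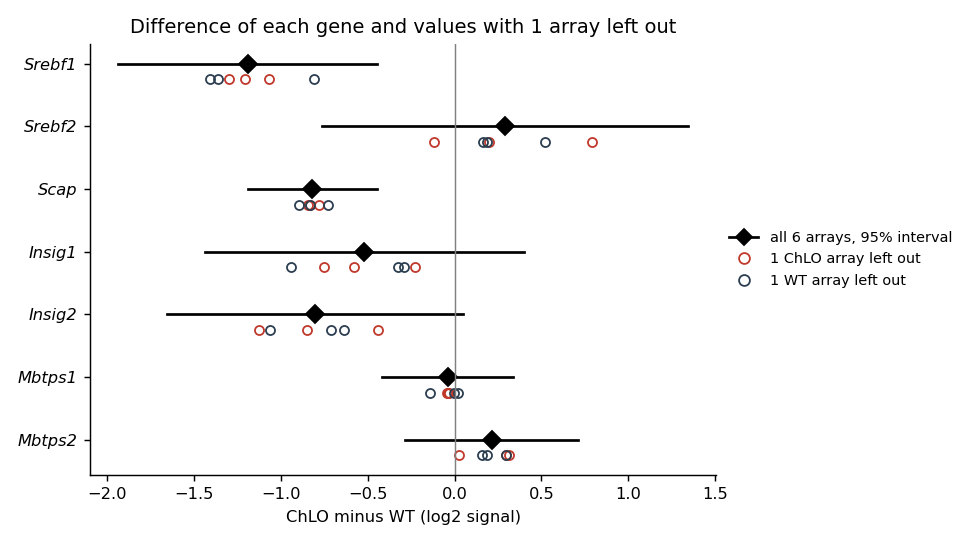
ChLO minus WT difference in log2 signal (x axis) for each of the 7 genes, with diamonds for all 6 arrays, bars for the 95% interval of limma and open circles for values with 1 array left out. The intervals of Srebf1 (-1.93 to -0.45) and Scap (-1.19 to -0.45) lie below 0, and those of the other 5 genes include 0.

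Within each group the 7 genes did not vary in the same way. Departures from the WT mean of each gene were -0.77, -0.90 and -0.79 for Scap in ChLO 1, 2 and 3, whereas for Insig2 they were -0.71, -0.16 and -1.53. The within-group SD was 0.13 for Scap and 0.12 for Mbtps1, below the median of 0.35 over all genes tested. It was 0.71 for Srebf2, 0.64 for Insig1 and 0.59 for Insig2, above that median. Of the 7 genes, 4 had their lowest ChLO reading in ChLO 3 and their lowest WT reading in WT 3, Srebf1, Srebf2, Insig1 and Insig2, against 15.1% of all genes tested. This arrangement was noticed in the data and was not tested.

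**Figure D3:**
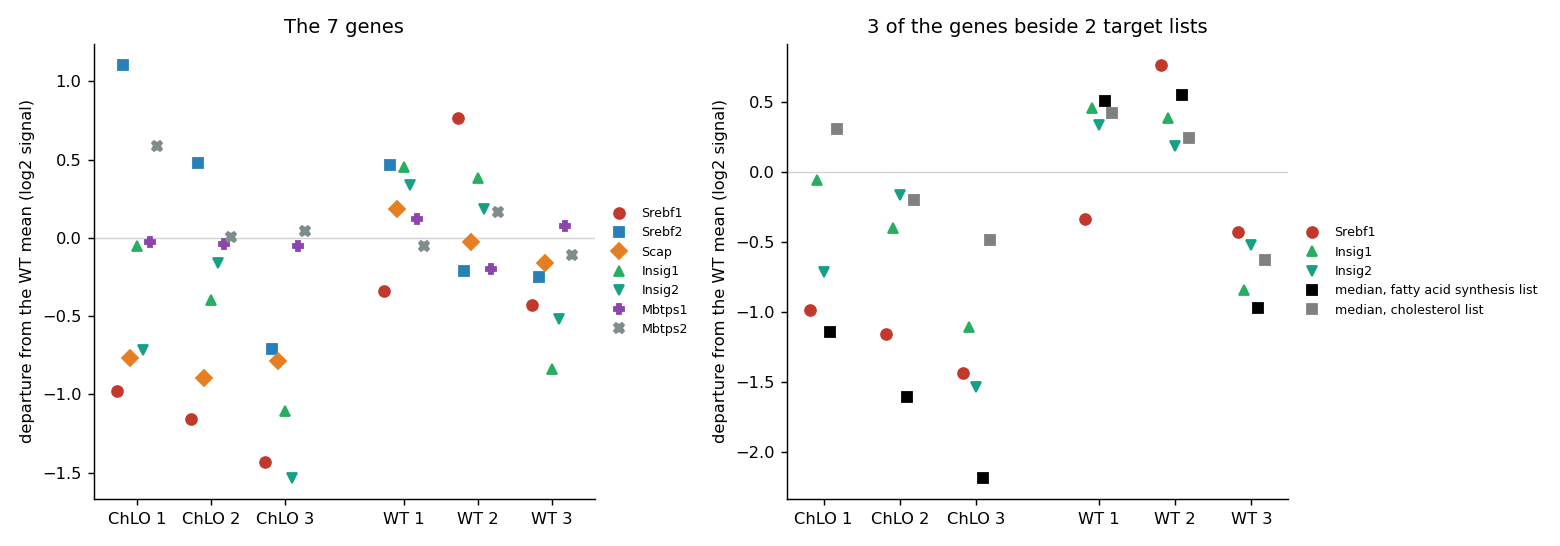
Departure of the log2 signal from the WT mean (y axis) in each array, for the 7 genes on the left and for Srebf1, Insig1, Insig2 and the medians of 2 target gene lists on the right. Points are single arrays. Scap lies between -0.90 and -0.77 in the 3 ChLO arrays, while Insig1 and both list medians read lowest in WT 3 within WT and in ChLO 3 within ChLO.

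Genes that SREBP-1 is known to activate for fatty acid synthesis were mostly lower in ChLO livers. Many of these genes are also textbook ChREBP targets. Of 17 genes measured out of 18 listed, 16 were lower and 1 higher, where 43.5% of all genes tested were lower. An unadjusted limma p under 0.05 was reached by 14, all lower, against 3.5% of all genes lower, and 0 passed over all genes tested. The median difference was -1.71, against 0.06 over all genes. The list median departed from WT by -1.14, -1.61 and -2.18 in ChLO 1, 2 and 3, and by 0.51, 0.55 and -0.97 in WT 1, 2 and 3, so WT 3 lay near the highest ChLO array. Of the 17 genes, 13 were lowest in both ChLO 3 and WT 3 within their groups, against 15.1% of all genes tested.

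Elovl6, a fatty acid elongase, read 11.17, 10.11 and 9.60 in ChLO, against 14.48, 14.89 and 12.38 in WT, a difference of -3.62 (SE 0.66). Thrsp, a lipogenic regulator, averaged 12.44 in ChLO and 15.30 in WT. Elovl5, another elongase, averaged 13.38 in ChLO and 15.16 in WT, and Acacb, an acetyl-CoA carboxylase, 8.32 in ChLO and 11.13 in WT. The groups did not overlap for these 4 genes. Pnpla3, a lipid droplet protein induced by SREBP-1c, read 8.56, 6.52 and 5.45 in ChLO, against 10.12, 9.97 and 7.20 in WT. Its ChLO 1 reading was above WT 3, as was that of Fasn, fatty acid synthase, at 12.94 in ChLO 1 against 12.87 in WT 3. Scd1, stearoyl-CoA desaturase, differed by -0.72 (SE 0.23), with means of 15.20 in ChLO and 15.92 in WT. That probe set read up to 16.05, where the highest signal on any array was 16.38, and the dimmer Scd1 probe set differed by -2.28. Scd2, a related desaturase, was the 1 gene that was higher, by 0.96 (SE 0.71).

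Genes of cholesterol synthesis and uptake, the known SREBP-2 targets, showed no common direction. Of 19 genes measured out of 24 listed, 12 were lower and 7 higher, where 43.5% of all genes tested were lower. An unadjusted limma p under 0.05 was reached by 3 (2 lower and 1 higher), or 15.8%, against 8.96% of all genes. The median difference was -0.12. With spike-in scaling, where the median of all genes was 0.31, it was 0.13. With 1 array omitted it ran from -0.41 (without WT 3) to 0.19 (without WT 1), and it was -0.28 without ChLO 1, -0.20 without ChLO 2 and -0.055 without ChLO 3, so its sign was not settled. Stard4, a sterol carrier, read 10.99, 11.06 and 11.19 in ChLO, against 11.93, 12.11 and 11.90 in WT, without overlap. Aacs, acetoacetyl-CoA synthetase, which feeds both fatty acid and sterol synthesis, differed by -2.03 (SE 0.50). Msmo1, a sterol methyl oxidase, differed by 0.80 (SE 0.22), and Sc5d, a sterol desaturase, differed by -0.43 (SE 0.19) on its brightest probe set and by -1.41 and -1.27 on the other two.

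Hmgcs1, which makes the mevalonate precursor, read 14.18, 13.50 and 12.36 in ChLO, against 13.67, 13.02 and 11.53 in WT. Sqle, squalene epoxidase, read 11.83, 11.41 and 9.69 in ChLO, against 11.91, 11.55 and 9.96 in WT. Array 3 was lowest in each genotype for both genes. Hmgcs1 was higher on average in ChLO by 0.60 (SE 0.61), with all 5 of its probe sets higher by 0.48 to 0.66, whereas the difference of Sqle was -0.17 (SE 0.65). Of the 19 genes, 10 were lowest in array 3 of both genotypes, or 52.6%, against 15.1% of all genes tested. The list median departed from WT by 0.30, -0.20 and -0.48 in ChLO 1, 2 and 3, and by 0.42, 0.24 and -0.63 in WT 1, 2 and 3.

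**Figure D4:**
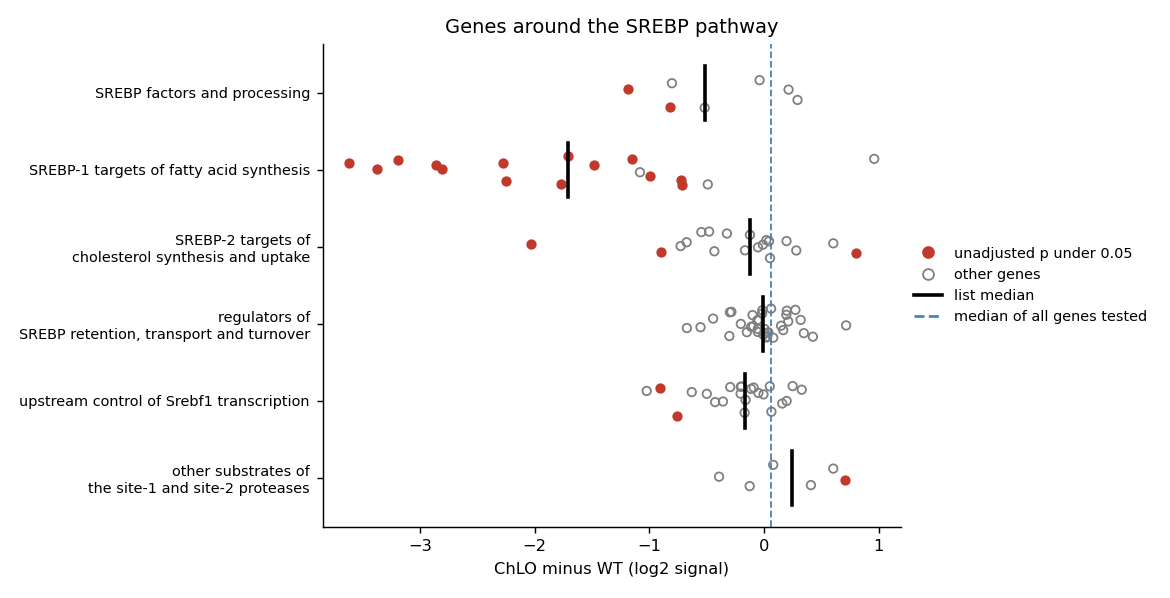
ChLO minus WT difference in log2 signal (x axis) of every tested gene in the 7-gene set and in 5 gene lists around the SREBP pathway. Filled points have an unadjusted limma p under 0.05, black bars are list medians and the dashed line is the median of all genes tested (0.06). The fatty acid synthesis list has its median at -1.71 and the list of regulators at -0.01.

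Regulators of SREBP retention, transport and turnover differed little. The list held ubiquitin ligases and their partners that degrade INSIG or HMG-CoA reductase, the COPII coat that carries SCAP, and kinases and a ligase that mark nuclear SREBP. Of 35 genes measured out of 36 listed, 18 were lower and 17 higher, where 43.5% of all genes tested were lower. An unadjusted limma p under 0.05 was reached by 0 of them, against 8.96% of all genes. The differences ran from -0.67 to 0.71 with a median of -0.01, which was -0.083 to 0.048 with 1 array omitted. With spike-in scaling the list median was 0.24, where the median of all genes was 0.31. Erlin2, an endoplasmic reticulum protein that binds the INSIG complex, came first in the list by p, at 9.97, 9.56 and 9.85 in ChLO, against 9.30, 9.48 and 9.33 in WT. Its groups did not overlap, and its difference was 0.43 (SE 0.18).

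Pgrmc1, a membrane haem-binding protein, differed by -0.30 (SE 0.17), Paqr3, a Golgi anchor of the SCAP complex, by -0.67 (SE 0.38), and Sar1b, the GTPase that starts COPII assembly, by -0.44 (SE 0.26). Rnf139, the ligase TRC8, differed by -0.055 (SE 0.21) on its brighter probe set and by -1.40 on a dim one. Spring1, which is needed for site-1 protease activity, differed by -0.095 (SE 0.39) and, on its other probe set, by 0.11. Lpin1, a phosphatidate phosphatase whose nuclear form restrains SREBP, stands outside this list and read 11.71, 10.91 and 10.88 in ChLO, against 13.49, 13.86 and 13.95 in WT. Its difference of -2.60 (SE 0.26) had an adjusted limma p of 0.0528, the smallest over all genes.

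Genes known to control Srebf1 transcription were more often lower than higher. Of 23 tested out of 26 listed, 17 were lower and 6 higher, where 43.5% of all genes tested were lower, and 2 had an unadjusted limma p under 0.05, or 8.70%, close to the 8.96% of all genes. The median difference was -0.17, against 0.06 over all genes tested. With spike-in scaling it was 0.080, against 0.31 over all genes tested. Nr1h3, which encodes LXR alpha, read 9.47, 9.69 and 9.48 in ChLO, against 10.17, 9.47 and 9.89 in WT, with overlapping groups and a difference of -0.30 (SE 0.22). Nr0b2, the nuclear repressor SHP, differed by -0.91 (SE 0.22) and Bhlhe40, a repressor of the clock system, differed by -0.76 (SE 0.22), both without overlap. Hnf4a, the hepatocyte factor, which is also among the hepatocyte markers, differed by -0.36 (SE 0.18) and Onecut1, also called HNF6, by -1.02 (SE 0.53). The 9 measured hepatocyte markers were lower by differences of -0.43 to -0.19, and their part in this list was not tested.

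Other substrates of the site-1 and site-2 proteases were read as well. Of 6 tested out of 8 listed, 2 were lower and 4 higher, where 43.5% of all genes tested were lower. An unadjusted limma p under 0.05 was reached by 1 gene, or 16.7%, against 8.96% of all genes. It was Gnptab, which tags lysosomal enzymes and is cut by the site-1 protease. It read 8.83, 8.47 and 8.19 in ChLO, against 7.89, 8.05 and 7.43 in WT, a difference of 0.71 (SE 0.27), while its dimmer probe sets differed by 0.37 and 0.18. Atf6, the sensor of unfolded proteins, differed by -0.13 (SE 0.17) on its brightest probe set, and by -0.039 and 0.50 on dimmer ones. Atf6b, its paralogue, differed by 0.60 (SE 0.31) and Creb3l3, the liver factor CREBH, by -0.39 (SE 0.37). Creb3l2, a related membrane factor, differed by 0.41 (SE 0.35) on its brighter probe set and by 1.07 on the dimmer one. The list median was 0.24. These are transcript levels, and cleavage of the encoded proteins was not measured.

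The genes whose profile over the 6 arrays came closest to that of Srebf1, by root mean square difference of the mean-centred log2 signals, were Pstpip2 (0.17), Nrg4 (0.22), Fgd3 (0.24), 9130001E16Rik and 1810008I18Rik (0.25 each). Pstpip2, an adaptor of the actin cytoskeleton, read 8.97, 9.19 and 8.83 in ChLO, against 9.89, 10.64 and 9.59 in WT, with WT 2 highest as for Srebf1. Nrg4, a secreted ligand of the ErbB receptors, read 8.91, 8.38 and 8.23 in ChLO, against 9.36, 9.96 and 8.95 in WT. Closest to Srebf2 were Acyp2, Pygb, Nfxl1, Nop58 and Ppil1, with root mean square differences of 0.08 to 0.10. Like Srebf2, all 5 read highest in ChLO 1 and lowest in ChLO 3 within ChLO, and Pygb, the brain form of glycogen phosphorylase, read 9.06, 8.55 and 7.15 there, against 8.46, 7.65 and 7.61 in WT. The genes were picked for likeness among the 12598 searched, so a shared order of arrays largely follows from the choice. The likeness is a description over 6 arrays. Among the 7 genes, Insig1 and Insig2 were 0.34 apart by the same measure, Mbtps1 and Mbtps2 0.28, Srebf1 and Scap 0.46, and Srebf1 and Srebf2 0.99.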

How the data were processed

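The authors deposited 1 table of log2 signals for 45101 probe sets on 6 arrays. Per the submitters' processing notes the tool was MAS5, which summarises each array by itself. From the values, the deposited log2 signals correspond to linear signals with a mean of 500 on every array after 2% was trimmed from each end, so a change common to most transcripts cannot be read. Detection calls and scanner files were not used here.

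Probe sets were named through the platform annotation (34945 with 1 symbol, 932 with several, 9160 with none, 64 controls). Controls and probe sets with a mean under the 40th percentile (log2 5.50) were left out, which left 27022 probe sets and 12598 genes. A gene was represented by its brightest probe set. Groups were compared with limma 3.58.1 in R 4.3.3 (lmFit, eBayes with trend, no block) with Benjamini-Hochberg adjustment over all genes, or over all 27022 probe sets for the dimmer probe sets, of which 8 (0.0296%) passed. On simulated data it was checked only that the fitted differences followed the shifts added, and no rate of true or false calls is given here. P-values measure the spread between mice. Sequences are from RefSeq (GRCm38.p6).

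The 7 genes and the 5 gene lists, with 112 genes of which 100 were tested, were chosen with earlier results of these data known, so no list was tested. Named are the 7 genes, 18 fixed genes of which 5 are not analysed here, up to 4 genes per list with the smallest p, and the 5 genes closest in profile to each SREBP factor. Outside that rule Alb is named as a marker, and Scd2 and Apob after their values were seen. Alternatives were other scalings, filters, variance models, probe set choices, a log2 floor of 4, a replicate block and leaving out each array.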

Additional observations from a re-analysis of the deposited data

How the results depend on the processing

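The differences of Srebf1, Scap, Insig1, Insig2 and Mbtps2 kept their sign in every setting tried, and Scap passed at an adjusted limma p of 0.05 only with array weights, at -0.86 (adjusted p = 0.0231). On probe sets as the unit, array weights also gave Srebf1 an adjusted limma p of 0.0353. The weights stopped before full convergence, and the cause of the extra calls was not tested. With spike-in scaling Mbtps1 was 0.21 on its brightest probe set and 0.0041 on the dimmer one, where the median of all genes was 0.31. The list medians were then 0.24 for regulators, 0.080 for upstream control and 0.49 for other protease substrates. The last was also 0.50 with no filter and 0.43 with the mean of all probe sets, where Srebf2 was -0.032. With 1 array omitted, Srebf2 ranged from -0.12 to 0.79, Mbtps1 from -0.14 to 0.022 and the substrate median from 0.12 to 0.38. The number of genes called was 3 with no filter, 3 without probe sets of several transcripts, 3 with a log2 floor of 4, 8 with all probe sets as the unit and 568 with array weights, and from 0 to 302 with an array left out (302 without ChLO 3). Unadjusted p under 0.05 was reached by 2013 genes with spike-in scaling (179 lower and 1834 higher, against 441 and 688), 3137 with array weights, 2167 probe sets, and from 700 (without ChLO 2) to 2575 (without ChLO 3) genes with an array left out. Beside Srebf1 and Scap, it was reached by Insig2 without ChLO 2, by Insig1 and Insig2 without WT 3 and by Srebf2, higher, without ChLO 3. Spike-in scaling shifts each array by a single constant, so it moved the difference of every gene by the same amount. The cause of that offset and of the other shifts was not tested.

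Replicate numbers are shared between genotypes, and the labels do not say whether same-numbered livers were handled together. Same-numbered arrays deviated together with correlations of 0.30, -0.17 and 0.06. Of the 6 arrays, 2 were closest to the array of their own number. So few arrays cannot show whether same-numbered arrays share a batch. With the replicate block 1 gene was called, the adjusted limma p was 0.236 for Srebf1 and 0.223 for Scap, and Insig1 and Insig2 also had an unadjusted p under 0.05. Dim probe sets limit what can be read, since MAS5 signals near the filter level vary widely on the log2 scale, as in the dimmest Mbtps1 probe set, which spanned 4.72 within WT.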
